A study of Mus musculus with 2 samples.

Results

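The Ifitm genes encode small membrane proteins that sit at the cell surface and in endosomes, and they were studied here as 4 members, Ifitm1, Ifitm2, Ifitm3 and Ifitm6, taken by name from 27998 genes in both count files. All 4 were present. They were read in 2 single-cell RNA libraries of CD45+ leukocytes (cells carrying the pan-leukocyte protein CD45) from TSA tumours, a transplantable mammary carcinoma of BALB/c mice. TSA cells had been grown subcutaneously in female Balb/c mice that were either untreated or given NAM (nicotinamide, a form of vitamin B3) at 0.5% in the drinking water for 10 days. Each library pooled the magnetically sorted cells of 3 mice. With a single library on each side no group had a replicate, and an effect of NAM cannot be told apart from a difference between the 2 pools or the 2 library preparations. The age of these mice was not given in the sources used here other than as a range for the whole study, and the tumour line is a single transplanted line.

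IFITM proteins insert into membranes and hinder the fusion of enveloped viruses with the cell, and several of the genes are classical targets of interferons. Interferons bind their receptors, activate transcription factors in the cell, and switch on genes that carry an interferon-stimulated response element in the promoter. IFITM3 acts mostly in endosomes, IFITM1 lies nearer the cell surface, IFITM2 resembles IFITM3, and Ifitm6 is a mouse member known from myeloid cells.

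The 4 genes lie together on chromosome 7 of GRCm38, which is the mm10 build of the files, within 63.1 kb (chr7:140954837-141017924; GENCODE vM21). Ifitm2 (ENSMUSG00000060591) spans chr7:140954837-140955987 on the minus strand and is overlapped by the predicted gene Gm45717. Ifitm1 (ENSMUSG00000025491) spans chr7:140967221-140969825 on the plus strand. Ifitm3 (ENSMUSG00000025492) spans chr7:141009586-141010770 and Ifitm6 (ENSMUSG00000059108) spans chr7:141015699-141017924, both on the minus strand. All 4 are annotated as protein coding.

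The sequence around a RefSeq start of each of the 4 neighbouring genes is shown. For Ifitm1 and Ifitm6 this start and its window lie inside the GENCODE span given above. The annotations thus differ there, and those windows do not show the bases before the GENCODE start. RefSeq start sites on GRCm38.p6 were matched by symbol for 4 of 4 members, and each line gives, 5′ to 3′ on the gene's own strand and in lower case throughout, 100 bases before the start and 30 bases from it. The windows are chr7:140967976-140968105 (plus strand, Ifitm1), chr7:140955932-140956061 (minus strand, Ifitm2), chr7:141010715-141010844 (minus strand, Ifitm3) and chr7:141016863-141016992 (minus strand, Ifitm6).
Ifitm1: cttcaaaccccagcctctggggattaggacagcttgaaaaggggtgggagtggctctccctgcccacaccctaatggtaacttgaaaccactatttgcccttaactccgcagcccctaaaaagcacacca
Ifitm2: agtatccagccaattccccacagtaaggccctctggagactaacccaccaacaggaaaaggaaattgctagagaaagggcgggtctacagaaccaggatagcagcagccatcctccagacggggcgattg
Ifitm3: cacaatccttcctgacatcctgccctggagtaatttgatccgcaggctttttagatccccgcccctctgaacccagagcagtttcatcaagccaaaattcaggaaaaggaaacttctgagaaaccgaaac
Ifitm6: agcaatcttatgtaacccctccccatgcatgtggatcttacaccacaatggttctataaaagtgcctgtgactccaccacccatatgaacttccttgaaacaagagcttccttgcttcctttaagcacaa

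Untreated tumours gave 2922 cells with 29161823 UMIs in all, a UMI (unique molecular identifier) standing for 1 captured RNA molecule. NAM tumours gave 3276 cells with 32090120 UMIs. Median depth was 9056 and 9128 UMIs per cell. Cells were grouped by UMIs of marker genes into gates. The Cd209a dendritic gate, for example, took cells with 2 or more Cd209a UMIs, at most 1 Cd3 UMI and fewer than 20 C1q UMIs, so a cell with Cd209a could lie in another gate or in none. Genes that no gate used were read as a check. Lck had a UMI in 91.2% of CD8 T cells and 2.02% of macrophage-gate cells, and Trem2 in 89.3% of macrophage-gate cells. The Cd209a dendritic gate was mixed by this check, with the dendritic gene Flt3 in 28.6% of its cells (0.295% of macrophage-gate cells), Zbtb46 in 11.4%, the monocyte gene Plac8 in 87.1% and Il1r2 in 82.9%. Of 15 gates written, 5 held no cell (basophil or mast, neutrophil, B, plasmacytoid dendritic, and stromal or tumour), and 453 untreated and 556 NAM cells fell in no gate. The same 11 barcodes occurred in both libraries. Without them none of the 36 NAM-over-untreated ratios computed for the members moved outside its interval.

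Levels are given as CPM, the UMIs of a gene per 1000000 UMIs of all cells in the gate. UMIs were counted at the 3′ end, so they were not divided by gene length and levels are compared between gates rather than between genes. Intervals are exact 95% intervals that cover counting error only, and since UMIs of one cell are not independent draws they are narrower than the spread between cells. With 1 library per group no test between the libraries was made, and ratios are descriptions of these 2 libraries.

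Ifitm1 was the member with the largest ratio between the libraries over all cells, and after Ifitm6 it was the one found in the fewest cells, 23.1% untreated and 31.2% with NAM. Over all cells it stood at 159 CPM untreated and 256 CPM with NAM, a log2 ratio of 0.69 (0.63 to 0.74). Among 10570 genes with at least 100 UMIs, 62 had a higher ratio. At a log2 ratio of 0.5 or higher, which 1.57% of those genes reached, 1 of 4 members was past the fold. Ifitm1 was among the genes that the study named from these same libraries, so its direction here is not independent evidence.

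In untreated cells the Cd209a dendritic gate had by far the highest Ifitm1 level, 2896 CPM (2698 to 3104), and in NAM cells it again led with 4686 CPM (4456 to 4924). Cd209a encodes a lectin of monocyte-related and conventional dendritic cells. The gate made up 1.10% and 1.16% of cells and yet held 17.1% and 19% of all Ifitm1 UMIs. The next untreated levels were those of the cDC1 gate (Xcr1 and Clec9a, the cross-presenting dendritic cells) at 473 CPM, the other T gate at 423 CPM and the monocyte gate at 419 CPM, and the intervals of these 3 overlapped. Below them came the intermediate myeloid gate (both Ly6c2 and C1q) at 279 CPM, the CD8 T gate at 125 CPM, the NK gate at 75.8 CPM and the macrophage gate at 74.3 CPM. The last 3 did not separate in order, because the NK interval overlapped both of the others. Below the Cd209a dendritic gate this order rested on few cells. Without the 5 highest cells of each gate the monocyte gate was at 268 CPM, cDC1 at 94.2 CPM and macrophage at 62.7 CPM. The intermediate myeloid gate was then at 37.7 CPM, other T at 6.82 CPM, NK at 6.76 CPM and CD8 T at 4.28 CPM. Regulatory T cells had 0 Ifitm1 UMIs in 36 cells, which allows a share of up to 8.33% of cells with a UMI, taking 3 counts as the limit of a count of 0 (the exact upper bound is 9.74%).

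In the NAM library the order was Cd209a dendritic, monocyte at 882 CPM, intermediate myeloid at 610 CPM, CD8 T at 317 CPM and macrophage at 132 CPM. The other T gate at 72.3 CPM and the cDC1 gate at 67.7 CPM had overlapping intervals, and so had the NK gate at 6.86 CPM and the regulatory T gate at 4.96 CPM, each of which rested on 1 UMI. Without the 5 highest cells of each gate the CD8 T gate stood at 29.8 CPM with NAM, below the macrophage gate at 116 CPM. The cDC1 gate was then at 14.7 CPM and the other T gate at 2.87 CPM. The plot of levels by gate shows the orders with every cell kept, beside those of the other members.

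**Figure D1:**
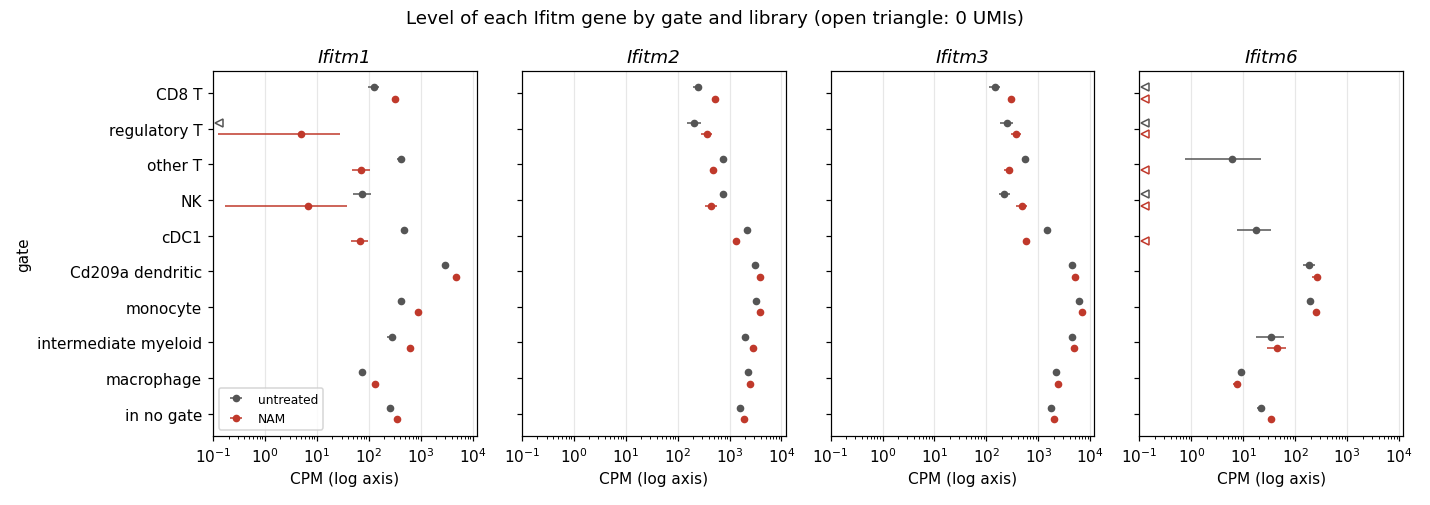
Level of Ifitm1, Ifitm2, Ifitm3 and Ifitm6 in CPM (horizontal log axis) in each gate (vertical axis), with grey points for the untreated and red points for the NAM library, bars for exact 95% counting intervals and open triangles for 0 UMIs. Ifitm1 peaks in the Cd209a dendritic gate (2896 and 4686 CPM), Ifitm3 in the monocyte gate (6036 and 7011 CPM), and Ifitm6 has 0 UMIs in the CD8 T, regulatory T and NK gates of both libraries.

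In the macrophage gate, which held 1950 untreated and 2117 NAM cells, Ifitm1 had a log2 ratio of 0.83 (0.74 to 0.92) between NAM and untreated. Of 9756 genes with at least 100 UMIs there, 34 had a higher ratio, and 1.59% reached 0.5 or higher, as 1 of 4 members did. Cells with at least 1 Ifitm1 UMI made up 21.5% of the untreated gate and 30.1% of the NAM gate. With every cell thinned to 3000 UMIs these shares were 10.2% (8.90 to 11.6) and 15.6% (14.1 to 17.2). The intervals of the thinned shares did not overlap, and median depth was close, at 9883 and 9907 UMIs.

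Cycling cells of the macrophage gate (2 or more UMIs of Mki67 and Top2a, both expressed in dividing cells) had the same direction for Ifitm1. They had 112 UMIs in 254 untreated cells and 234 UMIs in 219 NAM cells, or 29.2 CPM (24.1 to 35.2) and 67.0 CPM (58.7 to 76.1). The log2 ratio was 1.20 (0.87 to 1.54). Leaving out the 5 cells with most Ifitm1 per library gave 21.1 CPM and 40.8 CPM and lowered the ratio to 0.95 (0.54 to 1.37).

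In the monocyte gate (5 or more Ly6c2 and 10 or more Lyz2 UMIs with fewer than 20 C1q UMIs, and the macrophage gene Ms4a7 in 55.2% of cells) Ifitm1 had a log2 ratio of 1.07 (0.90 to 1.25), and only 10 of 2359 genes had a higher one. Here 6.23% of genes reached 0.5 or higher, against 1 of 4 members. The share of cells with a UMI was 41.6% and 57.1%, and 33.8% (26.3 to 41.8) and 49.7% (41.8 to 57.6) after thinning, intervals that just meet. In the intermediate myeloid gate the log2 ratio was 1.13 (0.80 to 1.47), on 30 untreated and 55 NAM cells, and it was -0.17 with doubled marker limits.

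The Cd209a dendritic gate had a log2 ratio of 0.69 (0.57 to 0.82) for Ifitm1 on 32 and 38 cells. In that gate 6.17% of 826 genes reached 0.5 or higher, and 1 of 4 members did. The share of cells with a UMI was 84.4% and 86.8%, with wide and overlapping intervals, while the median among cells with a UMI was 20 and 27 UMIs. Cells with 10 or more UMIs made up 50% (16 of 32) and 68.4% (26 of 38) of the gate.

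Ifitm1 was concentrated in few cells. The highest 1% of all cells held 42.5% of the untreated and 33.9% of the NAM UMIs of Ifitm1, against a median of 1 and 2 UMIs among the cells that had any. The single highest cell carried 180 UMIs among untreated cells and 159 among NAM cells. The untreated one lay in no gate and had 8 Ncr1, 20 Thy1 and 40 Ly6c2 UMIs with 0 Cd3e UMIs, Ncr1 and Thy1 being genes of NK and other innate lymphoid cells. The NK gate asked for 0 UMIs of all Cd3 genes and at most 1 UMI of Csf1r, Fcgr1 and Adgre1. This untreated cell therefore missed at least 1 of these limits. It had 26580 UMIs in all, against a median of 5265.5 in the untreated NK gate. Whether it was a doublet was not tested. The NAM one lay in the Cd209a dendritic gate and had 266 H2-Aa, 23 Plac8 and 7 Cd209a UMIs.

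**Figure D2:**
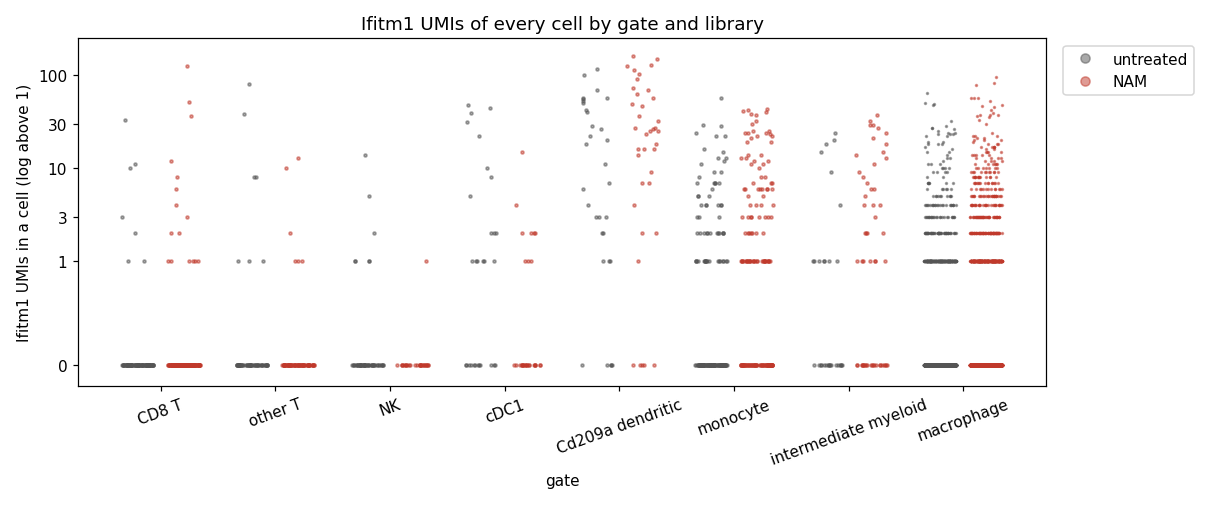
Ifitm1 UMIs of every cell (vertical axis, logarithmic above 1) by gate (horizontal axis), with grey points for untreated and red points for NAM cells, spread sideways at random. Most cells sit at 0 or 1, while 16 of 32 untreated and 26 of 38 NAM cells of the Cd209a dendritic gate carry 10 or more, and in the T gates a few cells carry nearly all UMIs.

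Leaving out the highest cells did not lower the Ifitm1 ratio in the macrophage, monocyte and Cd209a dendritic gates. Without the highest 1% of cells in each library, Ifitm1 in the macrophage gate was 45.9 CPM untreated and 88.3 CPM with NAM, a log2 ratio of 0.94 (0.83 to 1.06). Without the 5 highest cells, the monocyte gate was at 268 CPM and 695 CPM, a log2 ratio of 1.37 (1.16 to 1.59). The Cd209a dendritic gate without its 5 highest cells was at 1876 CPM and 3310 CPM, a log2 ratio of 0.82 (0.65 to 0.99). Over all cells the ratio without the highest 1% was 0.89 (0.82 to 0.95). The intermediate myeloid gate depended on few cells in the untreated library, where 5 cells held 88.7% of the Ifitm1 UMIs and only 11 UMIs were left without them.

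The cells with 10 or more Ifitm1 UMIs, a limit chosen after the values were seen, numbered 109 untreated and 198 NAM cells, which is 3.73% and 6.04% of the libraries. Of these, 33.9% and 34.8% lay in the macrophage gate, 14.7% and 13.1% in the Cd209a dendritic gate, 11% and 14.1% in the monocyte gate, and 22.9% and 26.3% in no gate. Macrophage-gate cells above this limit had more of the MHC class II gene H2-Aa than macrophage-gate cells with 0 Ifitm1 UMIs, 12464 CPM against 5913 CPM untreated and 13315 CPM against 7542 CPM with NAM. Plac8, which no gate used and which was listed for monocytes, stood at 289 CPM against 114 CPM and at 265 CPM against 84.8 CPM. It is not particular to monocytes here, with a UMI in 51.8% of NK-gate cells. In the cells of no gate the contrast was wider, with H2-Aa at 16712 CPM against 1338 CPM untreated and 16413 CPM against 1937 CPM with NAM. Above the limit, the macrophage gate had 0 cells with a Cd209a UMI among 37 in the untreated library and 2 among 69 in the NAM library, and the NAM cell of this gate with most Ifitm1 (94 UMIs) had 5 Cd209a UMIs. How far cells of another type within the macrophage gate set its Ifitm1 level was not tested.

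In the T gates a few cells held most of the Ifitm1 UMIs. In the CD8 T gate the level was 125 CPM untreated and 317 CPM with NAM, a log2 ratio of 1.34 (0.94 to 1.77), and Ifitm1, Ifitm2 and Ifitm3 were all past 0.5, which 5.09% of 1728 genes reached. One NAM cell held 125 of the 255 Ifitm1 UMIs of the gate, and that cell also carried the gate's highest counts of Ifitm2 (100 UMIs) and Ifitm3 (54 UMIs). It had 254 H2-Aa, 405 Cd74 and 80 Lyz2 UMIs beside 2 Cd3e and 1 Cd8a UMIs. The highest untreated cell held 33 of 61 UMIs. Without the highest cell of both libraries the ratio was 1.51 (0.91 to 2.15), and without the 5 highest cells 2 untreated and 23 NAM UMIs were left.

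In the other T gate (Cd3 without Cd8 or Foxp3) the direction was opposite to that of the CD8 T gate, 423 CPM untreated and 72.3 CPM with NAM, a log2 ratio of -2.55 (-3.19 to -1.95), which was -0.13 with halved marker limits. Ifitm1, Ifitm2 and Ifitm3 were all at -0.5 or lower there, which 6.76% of 1021 genes reached, and no member was at 0.5 or higher, which 7.74% of genes were. One untreated cell with 37 Ly6c2 and 2 Ncr1 UMIs beside 5 Cd3e UMIs held 80 of the 137 Ifitm1 UMIs, and another with 36 Cd209a and 0 Cd3e UMIs held 38. The ratio was -2.19 (-3.12 to -1.35) with the highest cell of both libraries left out, and without the 5 highest cells 2 and 1 UMIs were left. The share of cells with a UMI was 10.9% (4.51 to 21.3) and 7.89% (2.95 to 16.4), intervals that overlap widely. Whether these cells were doublets or misassigned cells was not tested.

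**Figure D3:**
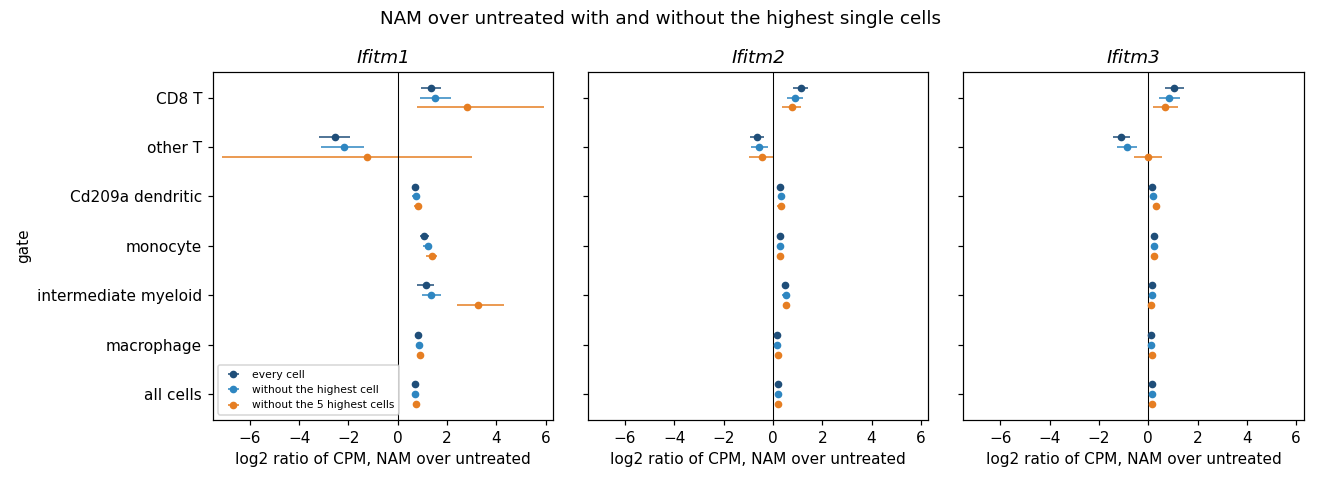
Log2 ratio of CPM between the NAM and the untreated library (horizontal axis) for Ifitm1, Ifitm2 and Ifitm3 in each gate (vertical axis), for every cell, without the highest cell and without the 5 highest cells of each library, with bars for exact 95% counting intervals. In the macrophage gate the Ifitm1 ratio stays between 0.83 and 0.89 in the 3 settings, while in the other T gate the Ifitm3 ratio goes from -1.09 to -0.02.

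The NK gate (56 and 29 cells) and the cDC1 gate (29 and 30 cells) were too small for a comparison, and their values are given side by side. In the NK gate 1 untreated cell held 14 of the 25 Ifitm1 UMIs. In the cDC1 gate Ifitm1 stood at 473 CPM (219 UMIs) and 67.7 CPM (30 UMIs), and without the 5 highest cells at 94.2 CPM and 14.7 CPM. The 5 highest cells held 84.0% and 83.3% of the UMIs.

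Ifitm3, the member best known for blocking virus entry from endosomes, was found in nearly every myeloid cell and differed little between the libraries. Over all cells it stood at 2171 CPM and 2382 CPM, a log2 ratio of 0.13 (0.12 to 0.15). The macrophage gate had 2162 CPM (2142 to 2182) and 2370 CPM (2350 to 2390), a log2 ratio of 0.13 (0.11 to 0.15). The monocyte gate had 6036 CPM (5884 to 6190) and 7011 CPM (6844 to 7181), a log2 ratio of 0.22 (0.17 to 0.27). These intervals do not reach 0, but 1803 of 9756 genes in the macrophage gate and 574 of 2359 genes in the monocyte gate had a higher ratio.

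The untreated order for Ifitm3 was monocyte, then Cd209a dendritic at 4522 CPM and intermediate myeloid at 4488 CPM, whose intervals overlapped, then macrophage, then cDC1 at 1457 CPM. The lymphoid gates came last, with 565 CPM in other T, 246 CPM in regulatory T, 221 CPM in NK and 143 CPM in CD8 T cells. The same 4 myeloid gates led in the NAM library, in the same order, and the cDC1 gate at 580 CPM then overlapped the NK gate at 480 CPM. In the cDC1 gate 675 untreated and 257 NAM UMIs stood behind these levels, and without the 5 highest cells the gate was at 714 CPM and 298 CPM.

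The cycling cells of the macrophage gate had an Ifitm3 level of 1745 CPM (1703 to 1787) untreated and 2115 CPM (2067 to 2164) with NAM, a log2 ratio of 0.28 (0.23 to 0.33), which was 0.45 with each cell thinned to 3000 UMIs. Both levels were below those of the macrophage gate as a whole, of which these cells are a part. The intervals cover counting error only, and no difference between the cycling cells and the rest of the gate was tested.

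Ifitm2, the close relative of Ifitm3, was at 2072 CPM and 2362 CPM over all cells, a log2 ratio of 0.19 (0.17 to 0.20). In untreated cells the monocyte gate at 3200 CPM and the Cd209a dendritic gate at 3133 CPM led with overlapping intervals. The macrophage gate at 2229 CPM and the cDC1 gate at 2152 CPM overlapped as well, and the lymphoid gates lay between 211 CPM and 750 CPM. Ifitm2 was therefore spread more evenly over the myeloid gates than Ifitm3.

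Between the libraries Ifitm2 had a log2 ratio of 0.18 (0.16 to 0.20) in the macrophage gate, 0.30 (0.23 to 0.36) in the monocyte gate and 0.29 (0.16 to 0.42) in the Cd209a dendritic gate. The intermediate myeloid gate had the highest ratio of the myeloid gates, 0.50 (0.37 to 0.63), with 1964 CPM and 2776 CPM. Cycling cells of the macrophage gate were close to the gate as a whole, with 0.17 (0.12 to 0.22). Without the highest 1% of cells the macrophage ratio was 0.19 for Ifitm2 and 0.14 for Ifitm3, since no few cells dominated either gene there. The last 500 bases of the Ifitm2 transcript hold 403 stretches of 98 bases, the read length. Of these, 23.1% also occurred in the transcripts of other genes annotated in GENCODE vM21, all of them with provisional Gm names. Some Ifitm2 reads may therefore not have been assigned. No such stretch was shared for Ifitm1, Ifitm3 or Ifitm6. The annotation behind the counts is not given, and Gm45717, a gene that shares sequence with Ifitm2, was not among the genes of the count files.

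In the T gates the Ifitm2 and Ifitm3 ratios also moved when each gene's own highest cells were left out. In the CD8 T gate Ifitm2 went from 1.12 (0.83 to 1.43) to 0.76 (0.38 to 1.15) on the log2 scale without the 5 highest cells, and Ifitm3 from 1.06 (0.67 to 1.47) to 0.69 (0.18 to 1.21). The share of CD8 T cells with an Ifitm2 UMI did not go up with this ratio, at 54.6% untreated and 49.4% with NAM, or 41.2% and 40.9% after thinning, with overlapping intervals. For Ifitm3 it was 40.2% and 42.2%, or 24.7% and 33.8% after thinning, again with overlapping intervals. In the other T gate Ifitm3 went from -1.09 (-1.45 to -0.73) to -0.02 (-0.59 to 0.55), and Ifitm2 from -0.64 (-0.93 to -0.36) to -0.46 (-0.96 to 0.04). Both intervals thus reached 0 in the other T gate without these cells. The cell there with most Ifitm1 (80 UMIs, untreated) had 0 Ifitm3 UMIs, so the cells left out were not the same for each gene. Regulatory T cells had log2 ratios of 0.80 (0.23 to 1.38) for Ifitm2 and 0.59 (0.05 to 1.14) for Ifitm3 on 36 and 35 cells. Leaving out the 5 highest cells brought these to 0.25 (-0.65 to 1.16) and 0.29 (-0.75 to 1.34), and the Ifitm3 interval already reached 0 with 1 cell per library left out, at 0.42 (-0.23 to 1.07).

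Macrophage genes also had UMIs in the lymphoid gates. The 4 macrophage genes Apoe, Mrc1, Ms4a7 and Trem2, which no gate used, in sum stood in the CD8 T gate at 4.4% of their macrophage-gate level untreated and 2.98% with NAM. Without the 5 highest cells they stood at 3.34% and 2.94%, while Ifitm3 was at 4.49% and 6.59% of its macrophage level and Ifitm2 at 7.59% and 11.3%. Median depth was 4457 and 4497 UMIs per CD8 T cell. Ifitm1 was at 5.75% and 22.5%, on 2 and 23 UMIs, so Ifitm2 and Ifitm3 lay above the macrophage genes in both libraries, as did Ifitm1 on these few UMIs. In the CD8 T, regulatory T, other T and NK gates the macrophage genes lay between 2.38% and 3.46% without the 5 highest cells, Ifitm3 between 4.49% and 8.18%, and Ifitm2 between 5.57% and 16.6%. Ifitm1 lay between 0% and 22.5% and was below the macrophage genes in regulatory T cells of both libraries and in the NK and other T gates with NAM. All these shares are of the macrophage-gate level, and shares of another level would differ. Ifitm2 and Ifitm3 were higher in the monocyte gate than in the macrophage gate, while each of the 4 macrophage genes was lower there. The part of free RNA and of doublets in these levels was not tested.

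Ifitm6 was the rarest member, and its level was highest in the monocyte and Cd209a dendritic gates. Over all cells it stood at 20.5 CPM (597 UMIs) and 22.2 CPM (713 UMIs), a log2 ratio of 0.12 (-0.04 to 0.28). In untreated cells the monocyte gate had 193 CPM (167 to 222) and the Cd209a dendritic gate 186 CPM (138 to 244), and in NAM cells 245 CPM (215 to 279) and 258 CPM (207 to 319). These gates did not differ beyond their intervals. The macrophage gate had 9.15 CPM and 7.49 CPM, and the intermediate myeloid gate 34.5 CPM and 44.7 CPM.

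The CD8 T, regulatory T and NK gates had 0 Ifitm6 UMIs in both libraries. For CD8 T cells that allows, by the same limit of 3 counts, a share of up to 3.09% of 97 untreated and 1.95% of 154 NAM cells with a UMI, and the exact upper bounds are 3.73% and 2.37%. In the monocyte gate 42.2% and 43.6% of cells had an Ifitm6 UMI, and 31.2% and 38.7% after thinning. In the macrophage gate the thinned shares were 2.92% and 2.83%. The monocyte gate made up 5.27% and 4.98% of cells and held 32.3% and 32.8% of the Ifitm6 UMIs.

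Between the libraries Ifitm6 had a log2 ratio of 0.35 (0.07 to 0.63) in the monocyte gate and 0.47 (-0.04 to 1.00) in the Cd209a dendritic gate. In the macrophage gate it was -0.29 (-0.60 to 0.02), on 188 and 168 UMIs, and -0.40 (-0.77 to -0.03) without the highest 1% of cells. Without the 5 highest cells the monocyte ratio was 0.48 (0.15 to 0.80). In cells of no gate it was 0.65 (0.31 to 1.00), from 22.0 CPM to 34.6 CPM.

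Against the macrophage gate the monocyte gate was higher in all 4 members in both libraries, and the order of the differences was the same. The log2 difference of monocyte over macrophage level was 4.4 untreated and 5.03 with NAM for Ifitm6, 2.49 and 2.74 for Ifitm1, 1.48 and 1.56 for Ifitm3, and 0.52 and 0.64 for Ifitm2. Past 0.5 were 15.5% of 8575 genes untreated and 13.8% of 8595 genes with NAM, and 4 of 4 members each time.

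To see how each member followed the interferon response of the single cell, cells were divided by their summed UMIs of Ifit1, Ifit2, Ifit3 and Rsad2, all strongly induced by type I interferons. In untreated macrophage-gate cells Ifitm3 stood at 1747 CPM in 1344 cells with 0 such UMIs, 2504 CPM in 447 cells with 1 to 4, 3591 CPM in 91 cells with 5 to 19 and 4672 CPM in 68 cells with 20 or more. In NAM cells the levels were 2043, 2551, 4047 and 4019 CPM in 1423, 519, 117 and 58 cells. Ifitm3 climbed with each step in the untreated library and levelled off above 5 UMIs in the NAM library.

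Ifitm2 did not climb. It stood at 2309, 2131, 1919 and 1965 CPM across the same untreated strata and at 2588, 2470, 2511 and 1901 CPM across the NAM strata. The log2 ratio of the top over the bottom stratum was -0.23 (-0.30 to -0.16) and -0.44 (-0.52 to -0.37) for Ifitm2, against 1.42 (1.37 to 1.47) and 0.98 (0.92 to 1.03) for Ifitm3. Past 0.5 were 11.3% of 7714 genes untreated and 11.8% of 7639 genes with NAM. Of the 4 members, 2 were past it untreated (Ifitm3 and Ifitm6) and 1 with NAM (Ifitm3).

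Ifitm1 in macrophages showed no climb either, with 76.6, 75.2, 36.6 and 79.8 CPM untreated and 129, 152, 108 and 84.4 CPM with NAM. Its top-over-bottom log2 ratio was 0.06 (-0.30 to 0.40) and -0.61 (-0.98 to -0.27). Ifitm6 had 1.31 (0.50 to 2.03) untreated and -0.52 (-2.43 to 0.88) with NAM, on few UMIs. For comparison, the ubiquitin-like interferon target Isg15 had 4.57 and 4.43, and the viral tether Bst2 had 1.63 and 1.18. The top stratum held deeper cells, with a median of 13499.5 and 13280.5 UMIs against 9564 and 9559 in the bottom one, and the part of depth in these ratios was not tested beyond thinning. Strata drawn from cells thinned to 3000 UMIs left only 7 and 7 macrophages at the top, and Ifitm3 then had 1.19 (1.02 to 1.36) and 0.40 (0.21 to 0.57), and Ifitm2 -0.67 (-0.97 to -0.38) and -1.47 (-1.80 to -1.15).

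In the monocyte gate Ifitm3 stood at 4902, 6714, 8753 and 8695 CPM across the untreated strata and at 5921, 7492, 10116.5 and 10257 CPM across the NAM strata. The top stratum held only 8 and 7 monocytes. Ifitm2 had top-over-bottom ratios of -0.48 (-0.73 to -0.23) and -0.41 (-0.69 to -0.15), and Ifitm1 had 0.05 (-0.65 to 0.69) and -1.10 (-1.87 to -0.42). Ifitm1 itself stood at 345, 446, 777 and 358 CPM across the untreated strata and at 1000.1, 863, 376 and 467 CPM across the NAM strata. The highest untreated level was that of the third stratum, on 81 UMIs in 16 cells, and the intervals of the lower 2 strata overlapped. The shares of untreated cells with an Ifitm1 UMI were 36.8%, 48.8%, 43.8% and 50%, and values without the highest cells were not computed by stratum. With strata from thinned cells the Ifitm2 ratio in NAM monocytes turned to 0.27 (-0.09 to 0.61), on 3 cells at the top.

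**Figure D4:**
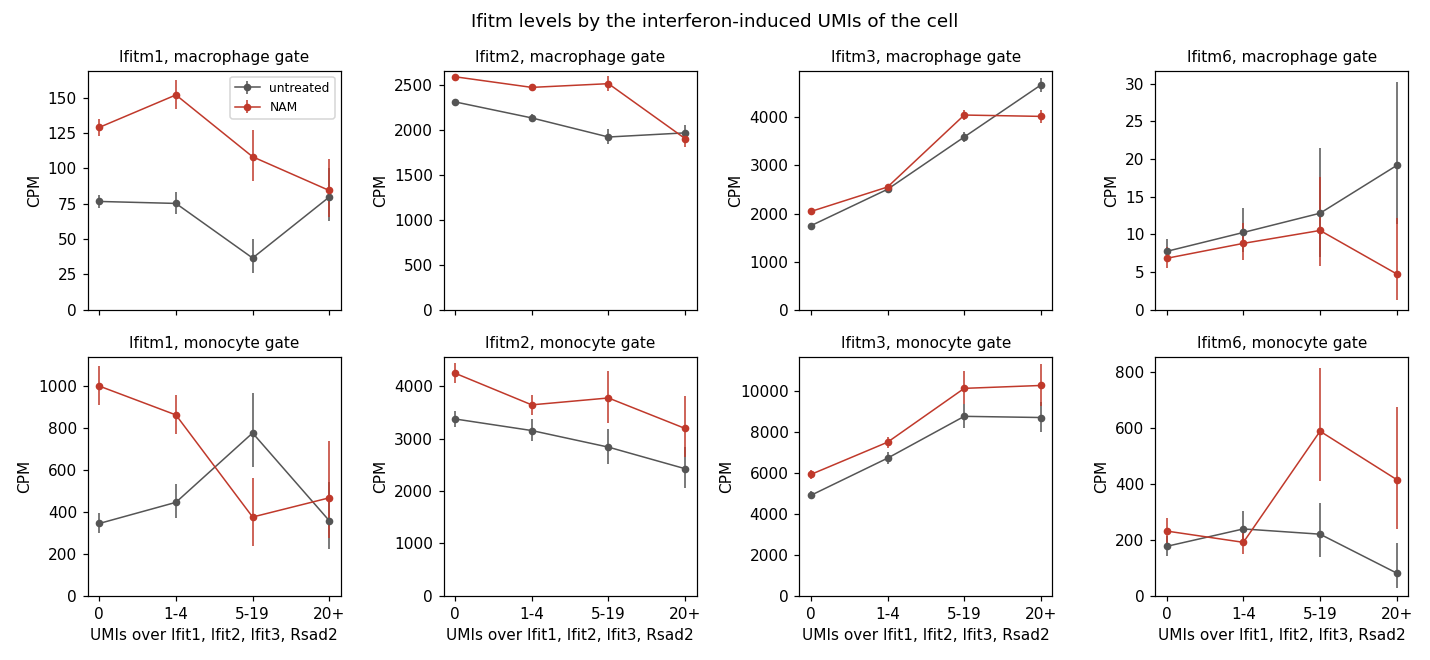
Level of each member in CPM (vertical axes, from 0) by the UMIs of Ifit1, Ifit2, Ifit3 and Rsad2 in the cell (horizontal axis) in the macrophage gate (upper row) and the monocyte gate (lower row), grey for untreated and red for NAM cells, with exact 95% counting intervals. Ifitm3 climbs from 1747 to 4672 CPM in untreated macrophages, while Ifitm2 goes from 2309 to 1965 CPM.

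A second division, added after these values were seen, used the UMIs of Gbp2, Irgm1, Ifi47 and Irf1, genes that respond strongly to interferon gamma. In NAM macrophages Ifitm1 stood at 125, 82.3, 168 and 282 CPM in cells with 0, 1 to 4, 5 to 19 and 20 or more of these UMIs. In untreated macrophages it stood at 54.1, 82.1, 70.4 and 138 CPM. The highest level was in the top stratum in both libraries, which held 37 untreated and 91 NAM cells. Its median depth was 15812 and 13218 UMIs, against 8359 and 7926.5 in the bottom stratum, and the part of depth was not tested. Ifitm3 in macrophages went from 1468 to 3675 CPM and from 1919 to 3052 CPM between the bottom and the top of this division. Ifitm2 stayed between 2145 and 2299 CPM and between 2508 and 2541 CPM. In monocytes Ifitm1 stood at 251, 375, 558 and 601 CPM untreated and at 472, 741, 1132 and 1130 CPM with NAM. The top stratum there held only 7 and 9 monocytes.

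The wider interferon pathway was read from the lists against all genes of the macrophage gate, of which 1.59% were at a log2 ratio of 0.5 or higher and 5.83% at -0.5 or lower. Of 10 interferon signalling genes tested in the macrophage gate, 1 was higher and 0 were lower by these limits, with a median of 0.03 against -0.04 over all genes. The one was Irf1, a transcription factor induced by interferon gamma, at 0.83 (0.74 to 0.92). Of 21 interferon-induced genes, 2 were higher (Irgm1 at 0.56 and Cxcl9 at 0.55) and 2 lower (Oasl1 at -0.60 and Mx1 at -0.59), with a median of 0.04. Irgm1 is a GTPase against intracellular microbes, Cxcl9 a chemokine that draws T cells, and Oasl1 and Mx1 are antiviral proteins.

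In the monocyte gate 6.23% of all genes were higher by the same limits and 10% lower. There 8 signalling genes could be tested, of which 1 (Irf1, 0.71) was higher and 0 lower. Of 18 interferon-induced genes 0 were higher and 3 lower, Oasl1 at -1.06, Usp18 at -0.85 and Cxcl9 at -0.53, with a median of -0.16. In the Cd209a dendritic gate 7 interferon-induced genes could be tested, of which 0 were higher and 4 lower, with a median of -0.92, while 6.17% of all genes were higher and 11.5% lower. The intermediate myeloid gate went the other way, with 4 of 13 interferon-induced genes higher and 0 lower and a median of 0.30, while 7.84% of all genes were higher and 8.92% lower. Cells of no gate had 8 of 20 higher and 0 lower and a median of 0.18, against 2.21% and 4.68% of all genes. Ifitm1 had ratios of 0.83 in the macrophage gate, 1.07 in the monocyte, 0.69 in the Cd209a dendritic and 1.13 in the intermediate myeloid gate, and 0.46 in cells of no gate, which was 0.58 (0.48 to 0.69) with the highest cell of both libraries left out and 0.83 (0.70 to 0.95) with the 5 highest left out.

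Among interferon ligands, Ifng had 146 untreated and 240 NAM UMIs over all cells, a log2 ratio of 0.58 (0.28 to 0.89), and in the CD8 T gate 98 and 193 UMIs, a ratio of 0.26 (-0.10 to 0.62). Ifnb1 had 16 UMIs in 6 untreated cells and 78 UMIs in 8 NAM cells, and a single NAM cell held 44 of the 78. Of 8 genes whose proteins act with or on IFITM proteins, such as the ubiquitin ligase Nedd4, the palmitoyltransferase Zdhhc20 and the protease Zmpste24, 0 were higher and 0 lower in the macrophage gate, with a median of 0.06. The lists were chosen with earlier results of these data known.

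Within 100 kb on either side of the cluster, 3 other genes had at least 100 UMIs in the macrophage gate. Their log2 ratios were 0.11 (0.02 to 0.19) for the proteasome subunit gene Psmd13, 0.01 (-0.27 to 0.29) for the mitochondrial deacylase gene Sirt3 and 0.18 (-0.33 to 0.70) for the receptor gene Sigirr. Over all cells the remaining family rows were rare, with 28 and 24 UMIs for Ifitm5, 33 and 54 for Ifitm7 and 97 and 88 for Ifitm10.

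Across 16 points, each a gate with 30 or more cells in 1 library, the levels of Ifitm2 and Ifitm3 had a Pearson correlation of 0.94, Ifitm3 and Ifitm6 one of 0.94, and Ifitm1 had 0.74, 0.65 and 0.74 with Ifitm2, Ifitm3 and Ifitm6. The points share libraries and gates of one lineage, and these values are descriptions. Between single macrophage-gate cells the correlations were lower, 0.28 and 0.34 for Ifitm2 with Ifitm3 and 0.17 and 0.20 for Ifitm2 with Ifitm1. Among 10533 other genes the highest Pearson correlation with Ifitm1 over the 16 points was that of Flot1 (0.91), a membrane raft protein gene. For Ifitm2 it was Klf4 (0.97), a transcription factor of monocytes, for Ifitm3 Alpk1 (0.97), a kinase that senses bacterial sugars, and for Ifitm6 Flrt3 (0.98), an adhesion protein gene. By Spearman's rho other genes came first, Ptp4a1 (0.86) for Ifitm1, Tspo (0.96) for Ifitm2, Gm17056 (0.98) for Ifitm3 and Timp1 (0.97) for Ifitm6.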

How the data were processed

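Single-cell 3′ libraries (10x Genomics) were made by the study from magnetically sorted CD45+ cells, pooled from 3 mice per group. Per the labels, reads were processed with Cell Ranger on mm10. The deposited files hold raw UMI counts per gene and cell, 1 file per library; the authors' cell filters were kept as deposited and every cell in the files had at least 3001 UMIs.

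Counts were summed over gates of marker UMIs and divided by all UMIs of the gate (CPM). Gates used 2 or more Cd3 UMIs for T cells, 20 or more C1q UMIs for macrophages, 5 or more Ly6c2 with 10 or more Lyz2 UMIs for monocytes, and Foxp3, Cd8, Ncr1, Xcr1 with Clec9a, or Cd209a for the rest. T and NK gates allowed at most 1 UMI of Csf1r, Fcgr1 and Adgre1, of which macrophages needed 2, the dendritic, monocyte and macrophage gates at most 1 Cd3 UMI, the dendritic and monocyte gates fewer than 20 C1q UMIs, and the macrophage gate fewer than 5 Ly6c2 UMIs. Cells that met more than 1 gate (10 and 9) were left out of the gates, and doublets were not removed by any caller. Levels were given for gates of 50 or more cells and ratios for 30 or more per library. Exact Poisson, Clopper-Pearson and conditional binomial 95% intervals were computed with SciPy 1.17.1 in Python 3.11.15 (NumPy 2.4.6, pandas 2.3.3); they cover counting error only. Shares of genes past a log2 ratio of 0.5 took genes with 100 or more UMIs and a pseudocount of 0.5 UMIs. The study's tests between cells were not used, since cells are not replicates and each group is 1 library. The named genes were the 4 members, the lists, the genes within 100 kb and the 5 genes most alike per member, of which the closest is given. The scripts were tested on simulated data. Alternatives were other gates, thinning to 3000 UMIs, another scaling, means over cells, and leaving out the highest cells, the 2.5% deepest cells, shared barcodes or interferon-high cells. Some items of the fixed lists and gates are not reported here. The members and lists were chosen with earlier results of these data known.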

Additional observations from a re-analysis of the deposited data

Results flagged for a closer look

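In the other T gate 3 members went against most of the other gates compared. Their log2 ratios of NAM over untreated were -2.55 for Ifitm1, -0.64 for Ifitm2 and -1.09 for Ifitm3, with intervals below 0, while the CD8 T, Cd209a dendritic, monocyte, intermediate myeloid and macrophage gates had ratios above 0 for all 3. The cDC1 gate, too small for a comparison, was also lower with NAM in all 3, at 473 CPM and 67.7 CPM for Ifitm1, 2152 CPM and 1346 CPM for Ifitm2, and 1457 CPM and 580 CPM for Ifitm3. The NK gate was lower in Ifitm1 (75.8 CPM and 6.86 CPM) and Ifitm2 (733 CPM and 446 CPM) and higher in Ifitm3 (221 CPM and 480 CPM), where 1 NAM cell held 38 of 70 UMIs and the levels without the 5 highest cells were 149 CPM and 107 CPM. The difference between the gates was not tested, as there was 1 library per group. The ratio for Ifitm3 was -0.02 without the 5 highest cells of each library, and for Ifitm1 only 2 and 1 UMIs were left. The Ifitm1 ratio was -0.13 with halved marker limits.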

How the results depend on the processing

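No paired analysis was possible because each group held 1 library and the labels gave no shared replicate numbers. Of 412 alternative values for 36 ratios of the members, 356 stayed within the interval of the reported value and 55 moved out of it. In 1 the sign also turned, that of Ifitm1 in the intermediate myeloid gate with doubled marker limits (-0.17). The cause was not tested. Changes of sign inside a wide interval counted as staying. Ifitm6 in cycling macrophage-gate cells, for example, had 0.23 with every cell and -0.22 without the 5 highest. Of 909 alternative values for 87 levels, 560 stayed and 349 moved, and without the 5 highest cells 78 of 87 moved. Of 13 alternative values for ratios between strata, 5 stayed, 7 moved and 1 turned. For Ifitm1 the ratio over all cells was 0.76 without the 5 highest cells and 0.89 without the highest 1%. In the monocyte gate it was 1.37 without the 5 highest cells, 0.89 as a mean over cells and 0.84 when thinned. In the macrophage gate it was 0.94 without the highest 1% and 0.71 as a mean over cells. In the Cd209a dendritic gate it was 0.89 with cells of several gates given to their first. In the CD8 T gate it was 2.80 without the 5 highest cells, 0.80 without the highest 1% and 0.73 as a mean over cells, and in the other T gate -1.25 without the 5 highest cells and -0.13 with halved marker limits. For Ifitm2 it was 0.23, 0.21 and 0.21 over all cells under median-of-ratios scaling, as a mean over cells and thinned, and 0.22 under that scaling in macrophages. For Ifitm3 it was 0.17, 0.16 and 0.16 over all cells under median-of-ratios scaling, as a mean over cells and without interferon-high cells, and 0.17, 0.16 and 0.18 in macrophages under that scaling, with halved marker limits and without interferon-high cells. In the Cd209a dendritic gate Ifitm3 was at 0.33 without the 5 highest cells, 0.037 thinned and 0.31 without interferon-high cells. The Ifitm2 ratio between interferon strata of NAM monocytes was 0.27 from thinned cells, on 3 cells at the top. An added weighting by the untreated gate shares, chosen after the data were seen, gave 0.65, 0.19, 0.14 and 0.15 for the 4 members over all cells. Gates of 29 to 38 cells limit the dendritic and NK values, and Ifitm6 was not detectable at this depth in the CD8 T, regulatory T and NK gates, with 2 UMIs in 1 untreated cell of the other T gate.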
